A study of Mus musculus with 6 samples.

Results

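Epithelial-mesenchymal transition (EMT) regulators were examined in LSC GFP+ and LSC GFP- cells, both sorted from the neonatal mouse prostate. The set comprised 10 genes chosen by name: the snail family (Snai1, Snai2, Snai3), the zinc finger E-box binding factors (Zeb1, Zeb2), the twist factors (Twist1, Twist2), the filament gene Vim, and the epithelial-identity factors Grhl2 and Ovol1. All 12 probes carrying these symbols were taken, of 55681 probes and 36163 symbols on the array, whatever their signal. Cells came from the prostates of male FVB/N mice of 6 days carrying the Tg 11.5kb-GFP transgene, in which GFP is driven by the promoter of s-SHIP, a shorter product of the gene of the inositol phosphatase SHIP1. Collagenase-digested tissue was depleted of Lin cells by Ter119, CD31 and CD45, gated on Sca-1 and CD49f (together LSC), and split into LSC GFP+ and LSC GFP- cells, so that both populations carried the transgene and neither was treated. The transgene also labels vascular smooth muscle cells, which lay outside this gate. There were 3 independent samples of each population, and amplified, Cy3-labelled RNA of each was hybridised to 1 SurePrint G3 Mouse array.

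EMT is a change of cell state in which epithelial cells lose junctions and polarity and gain motility. Snail, Zeb and twist factors bind E-box sequences and repress junction genes such as Cdh1, whereas Grhl2 and Ovol1 restrain Zeb factors and maintain the epithelial state. In many glands Snai2 is also a factor of normal basal cells, and Zeb, twist and vimentin transcripts are abundant in fibroblasts and smooth muscle.

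All values below are log2 signals relative to the 75th percentile of the same array, so that 0 is that percentile, and a difference is LSC GFP+ minus LSC GFP-. Because probes differ in their response, a value is compared between arrays and never between genes. By the scanner software's own flag, between 36657 and 42127 probes per array were well above background, no spot was saturated, and arrays correlated with each other at r between 0.963 and 0.979. Epithelial markers were bright in both populations: Epcam, an epithelial adhesion molecule, had means of 5.71 ± 0.21 and 5.74 ± 0.22 in LSC GFP+ and LSC GFP- cells (SD over 3 arrays each), and Trp63, the basal transcription factor, at 6.71 ± 0.12 and 6.60 ± 0.06. Of the genes of the gating antigens, Itga6 (CD49f) differed by 0.25 and Ly6a (Sca-1) by -0.36, and Inpp5d, which encodes SHIP1, stayed at background on all 6 arrays.

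The factors of the set moved in different directions. Snai2 and Ovol1 were higher in LSC GFP+ cells, Zeb1, Zeb2 and Twist1 were lower, and Snai3, Twist2, Vim and Grhl2 did not pass the threshold. Thus 5 of the 9 genes that could be tested passed an unadjusted p of 0.05 in limma, 2 higher and 3 lower, where 7.66% of all 25616 genes tested at their brightest probe passed (3.38% higher, 4.29% lower). Without LSC GFP- replicate 1, the count was 3, since Zeb1 and Ovol1 no longer passed. Twist1 and Zeb2 entered the test through LSC GFP- cells alone, the population in which they were higher, and with probes required to be above background on all 6 arrays 3 of 7 genes passed, 2 higher and 1 lower. The same 5 genes had no overlap between the 3 arrays of one population and the 3 of the other, against 11.9% of all genes (6.50% higher, 5.38% lower). Over the 37008 probes tested the share past the unadjusted threshold was 7.90%, of which 3.38% higher and 4.53% lower. After Benjamini-Hochberg adjustment over these probes 0 members passed in limma, as did 0 of the 25616 genes at the brightest probe, while 1 probe of the whole array passed (0.0027%). With 3 arrays against 3, the smallest two-sided exact permutation p is 0.1 for any single gene. The samples are described as independent, and the p-values measure the spread among them.

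**Figure D1:**
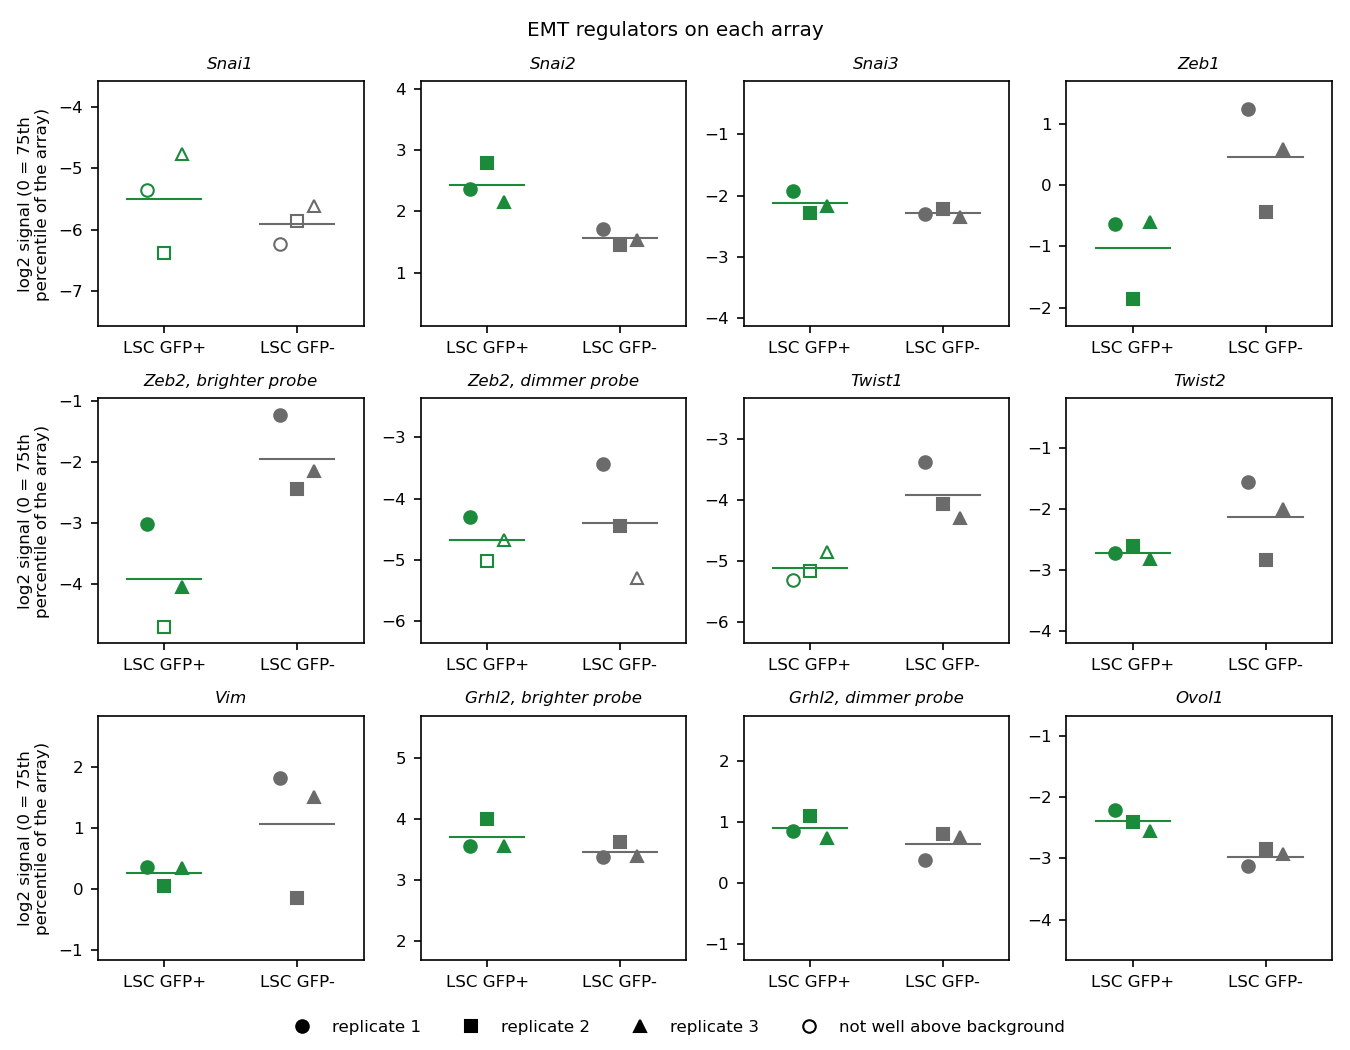
Log2 signal of each of the 12 probes (vertical axis, 0 is the array's 75th percentile, each panel spanning the same number of units) on the 3 LSC GFP+ and 3 LSC GFP- arrays, with lines at the population means and open symbols for arrays on which the probe did not clear background. The populations separate for Snai2, Zeb1, the brighter Zeb2 probe, Twist1 and Ovol1, and Snai1 is open on all 6 arrays.

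Promoters of the repressors are shown because E-boxes are the letters that snail and Zeb factors read, and because Zeb2 and Twist1 were both lower in LSC GFP+ cells. Sequences are from RefSeq on GRCm38.p6, 5′ to 3′ on the strand of the gene, 250 bases ending just before a transcript start. Capitals mark the E-box CAGGTG in either orientation (CAGGTG or CACCTG). Windows were at hand for 5 of the 10 genes, 8 windows in all, and Snai2, Snai3, Zeb1, Grhl2 and Ovol1 had none in the table. The window of Snai1 lies at chr2:167537945-167538194 (plus strand), that of Twist1 at chr12:33957421-33957670 (plus strand), and that of the outermost of 4 Zeb2 starts at chr2:45117443-45117692 (minus strand).
Snai1: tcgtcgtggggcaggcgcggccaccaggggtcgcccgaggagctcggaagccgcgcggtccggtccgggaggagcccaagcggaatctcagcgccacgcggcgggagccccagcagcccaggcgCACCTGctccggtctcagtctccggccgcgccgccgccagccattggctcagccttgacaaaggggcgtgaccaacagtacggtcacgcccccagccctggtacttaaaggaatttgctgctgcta
Twist1: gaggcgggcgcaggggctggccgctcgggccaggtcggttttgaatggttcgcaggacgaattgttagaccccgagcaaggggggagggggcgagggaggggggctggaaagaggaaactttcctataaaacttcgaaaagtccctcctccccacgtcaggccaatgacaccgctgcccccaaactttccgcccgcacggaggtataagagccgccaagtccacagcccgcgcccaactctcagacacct
Zeb2: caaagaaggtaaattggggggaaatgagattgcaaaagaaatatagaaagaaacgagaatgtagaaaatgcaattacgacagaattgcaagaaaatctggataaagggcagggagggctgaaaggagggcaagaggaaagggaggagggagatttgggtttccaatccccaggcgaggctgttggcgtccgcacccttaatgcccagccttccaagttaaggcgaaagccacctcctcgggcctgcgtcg

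Snai1 alone among the 5 genes held the E-box, from 126 to 121 bases before its start, and 17.2% of the 32851 RefSeq windows of this length held one. No window of Twist1, Twist2, Vim or Zeb2 held the wider form CANNTG, which 66.2% of all windows held. A match of letters describes the window and says nothing of binding in these cells.

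Of the snail family, Snai2 passed the threshold. Its probe (chr16:14709361-14709420, mm9 as the array design gives it, plus strand) read 2.37, 2.80 and 2.15 in LSC GFP+ replicates 1, 2 and 3, and 1.71, 1.44 and 1.53 in the LSC GFP- replicates. The lowest of the LSC GFP+ arrays exceeded the highest of the LSC GFP- arrays. The means were 2.44 ± 0.33 and 1.56 ± 0.14 (SD, n = 3 each), a difference of 0.88 (SE 0.23, 95% interval 0.35 to 1.40) or 1.84-fold, with adjusted p = 0.262 in limma. At matching replicate numbers the difference was 0.65, 1.35 and 0.62, so that replicate 2 contributed the largest step.

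Snai3, a family member of less studied function, was above background on every array and close in both populations. Its probe (chr8:124980233-124980292, minus strand) read -1.92, -2.28 and -2.16 in LSC GFP+ and -2.31, -2.21 and -2.35 in LSC GFP- replicates 1 to 3. The arrays overlapped, and the difference was 0.17 (95% interval -0.27 to 0.61, adjusted p = 0.996 in limma). Snai1, the family's prototype repressor of Cdh1, could not be tested: its probe (chr2:167368073-167368132, plus strand) was nowhere well above background, with signals from -6.39 to -4.77 in LSC GFP+ and from -6.24 to -5.62 in LSC GFP- cells. These signals are at the limit of the array and give neither a level nor a fold.

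Both Zeb genes, repressors of Cdh1 and of epithelial polarity genes, were lower in LSC GFP+ cells. The Zeb1 probe (chr18:5774613-5774672, plus strand) read -0.63, -1.85 and -0.61 in LSC GFP+ replicates 1, 2 and 3 and 1.24, -0.44 and 0.59 in the LSC GFP- replicates. The populations did not overlap, although LSC GFP- replicate 2 lay only just above the LSC GFP+ replicates 1 and 3. The means were -1.03 ± 0.71 and 0.46 ± 0.85, a difference of -1.49 (SE 0.49, 95% interval -2.62 to -0.37), that is 2.82-fold lower, with adjusted p = 0.411 in limma. Replicate 2 was the lowest array of Zeb1 in each population, and at matching numbers the differences were close to each other, at -1.87, -1.42 and -1.19. In the fit that ignores replicate numbers, the call rests on 2 of the arrays: without LSC GFP- replicate 1 the difference was -1.11 and without LSC GFP+ replicate 2 it was -1.08, and neither passed the unadjusted threshold (adjusted p = 0.825 and adjusted p = 0.923, limma).

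Zeb2 was represented by 2 probes, of which the brighter one (chr2:44842774-44842833, minus strand) read -3.01, -4.70 and -4.05 in LSC GFP+ and -1.23, -2.45 and -2.16 in LSC GFP- replicates 1, 2 and 3. All LSC GFP- arrays lay above all LSC GFP+ arrays, and LSC GFP+ replicate 2 was not well above background. The means were -3.92 ± 0.85 and -1.95 ± 0.64, a difference of -1.97 (SE 0.47, 95% interval -3.06 to -0.89), that is 3.93-fold lower, with adjusted p = 0.218 in limma. As for Zeb1, replicate 2 was the lowest array in each population, and at matching numbers the differences were -1.78, -2.25 and -1.89. With the normexp background correction the difference was -0.88, in the same direction and past the threshold. The dimmer probe (chr2:44840038-44840097) was well above background on 1 LSC GFP+ and 2 LSC GFP- arrays, was not tested, and its measured means differed by -0.28, less than those of the brighter probe.

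Twist1, a factor of mesoderm and of mesenchymal cells, was measured in LSC GFP- cells only. Its probe (chr12:34644411-34644470, plus strand) read -3.38, -4.07 and -4.30 in LSC GFP- replicates 1, 2 and 3, all well above background, and -5.30, -5.16 and -4.85 in the LSC GFP+ replicates, none of them well above background. The highest LSC GFP+ array was below the lowest LSC GFP- array. Set against the lowest signal that was well above background on each LSC GFP+ array, or the probe's own signal where higher, Twist1 was at least 1.58-fold lower in LSC GFP+ cells (adjusted p = 0.213 in limma on the measured signals, whose means were -5.11 and -3.92). With the normexp correction, which shrinks dim signals, the difference of the measured signals was -0.38 in place of -1.19.

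Twist2, a close relative that is expressed in dermal and other mesenchyme, was above background on every array but did not separate the populations. Its probe (chr1:93744519-93744577, plus strand) read -2.72, -2.61 and -2.83 in LSC GFP+ and -1.56, -2.84 and -2.0 in LSC GFP- replicates 1, 2 and 3. LSC GFP- replicate 2 was the lowest of all 6 arrays, while the other two LSC GFP- arrays were the highest. The difference was -0.58 (SE 0.32, 95% interval -1.33 to 0.16, adjusted p = 0.792 in limma).

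Vim, the intermediate filament of mesenchymal cells that is commonly used as an EMT marker, had the same arrangement. Its probe (chr2:13504232-13504291, plus strand) read 0.37, 0.05 and 0.35 in LSC GFP+ and 1.81, -0.15 and 1.5 in LSC GFP- replicates 1, 2 and 3. LSC GFP+ arrays stayed together (SD 0.18), whereas LSC GFP- arrays were spread (SD 1.05), with replicate 2 below all LSC GFP+ arrays. The difference of -0.80 (95% interval -1.90 to 0.29, adjusted p = 0.822 in limma) was not distinguishable from 0 at this spread. LSC GFP- replicate 2 decided both results: without it Vim differed by -1.40 (adjusted p = 0.213, limma) and Twist2 by -0.94 (adjusted p = 0.444, limma), and both passed the unadjusted threshold.

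**Figure D2:**
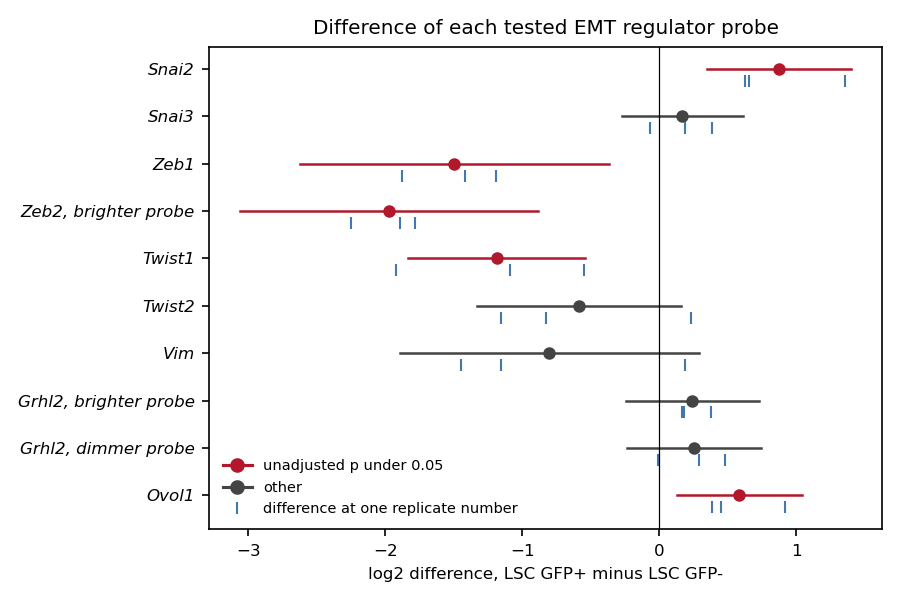
Log2 difference, LSC GFP+ minus LSC GFP-, of the 10 tested member probes (points) with 95% intervals of limma (lines) and the difference at each replicate number (ticks), in red where the unadjusted p was under 0.05. The intervals of Snai2 and Ovol1 lie above 0 and those of Zeb1, the brighter Zeb2 probe and Twist1 below 0, where the Twist1 point uses LSC GFP+ signals that were not well above background.

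Of the epithelial-identity factors, Ovol1, a zinc finger repressor of Zeb genes in other epithelia, was higher in LSC GFP+ cells. Its probe (chr19:5549209-5549268, minus strand) read -2.21, -2.40 and -2.55 in LSC GFP+ and -3.13, -2.85 and -2.94 in LSC GFP- replicates 1, 2 and 3. No arrays overlapped, and both populations were tight, at -2.39 ± 0.17 and -2.97 ± 0.14. The difference was 0.58 (SE 0.20, 95% interval 0.13 to 1.04), 1.5-fold, with adjusted p = 0.435 in limma. This call was lost without LSC GFP- replicate 1 (0.51, adjusted p = 0.943, limma) and with the normexp correction (0.29, adjusted p = 0.778, limma).

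Grhl2, a grainyhead factor that activates Cdh1 and other junction genes, was bright and close in both populations. Its brighter probe (chr15:37293139-37293198, plus strand) read 3.56, 4.0 and 3.56 in LSC GFP+ and 3.38, 3.62 and 3.40 in LSC GFP- replicates 1, 2 and 3. The arrays overlapped, and the difference was 0.24 (95% interval -0.25 to 0.73, adjusted p = 0.973 in limma). The second probe (chr15:37239426-37239485) differed by 0.26 (adjusted p = 0.962 in limma), so that both probes gave similar values.

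Further EMT-promoting factors showed no common direction. Of 9 such genes 7 were tested, and their median difference was 0.14 against -0.01 for all genes tested. Tcf4, an E-box factor of the E-protein class, was 0.67 higher in LSC GFP+ cells (adjusted p = 0.610, limma) and passed the unadjusted threshold, although its arrays overlapped. Prrx1, a homeobox factor of mesenchyme, was lower at both of its probes: the brighter one, above background on 1 LSC GFP+ and all 3 LSC GFP- arrays, differed by -2.09 (adjusted p = 0.229, limma). At its dimmer probe, above background on no LSC GFP+ array, Prrx1 was at least 1.75-fold lower (adjusted p = 0.0655, limma on the measured signals). Both Prrx1 probes entered the test through LSC GFP- cells alone, the population in which they were higher. With all 6 arrays required to be above background Prrx1 could not be tested. With 1 array left out at a time and the same probes kept, Prrx1 passed in all 6 fits at its brighter probe and Tcf4 in 1. Foxc2 and Gsc could not be tested, and Tcf3, Klf8, Sox4 and Hmga2 differed by at most 0.15 in either direction at their brightest probes. A dimmer Sox4 probe, above background on all 6 arrays, was 0.44 higher without overlap (adjusted p = 0.573, limma) and passed the unadjusted threshold.

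On the epithelial side, 1 of 10 further identity factors and 2 of 26 junction and surface genes passed the threshold. Of all genes tested 7.66% passed, and these small counts lie near that share. Among 10 further epithelial-identity factors the median difference was 0.02, and Ovol2, Esrp1 and Grhl1 differed by -0.01, 0.23 and 0.16. Elf5 was 1.32 lower on the log2 scale in LSC GFP+ cells (difference -1.32, adjusted p = 0.457, limma), with overlap between arrays, and was the only one of the 10 past the threshold, which it passed in 2 of 6 fits with 1 array left out. Among 26 junction and surface genes the median difference was -0.12, with 20 differences negative and 6 positive. Past the threshold there was 1 higher (Cldn1, a tight junction claudin, 0.75, adjusted p = 0.598 in limma) and 1 lower (Cldn3, -0.76, adjusted p = 0.517). Each of these passed in 3 of 6 fits with 1 array left out. A dimmer Cldn4 probe, above background on all 6 arrays, was 0.67 higher without overlap (adjusted p = 0.449, limma) and passed the unadjusted threshold. The brighter Cldn4 probe was 0.53 higher, also without overlap, and did not pass. With the replicate block 2 junction and surface genes were called higher and 3 lower, where 5479 of all 37008 probes passed, against 2925 as reported. Cdh1, the E-cadherin gene that the snail and Zeb factors repress, was at -0.27 ± 0.28 in LSC GFP+ and -0.50 ± 0.12 in LSC GFP- cells, a difference of 0.22 (adjusted p = 0.988 in limma).

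Among mesenchymal effector genes 12 of 22 tested passed the threshold, 10 of them lower in LSC GFP+ cells, with a median difference of -0.87. Of all genes tested 7.66% passed, 4.29% lower. Pdgfra and Lox entered the test through LSC GFP- cells alone. With all 6 arrays required to be above background, 9 of 20 were called lower and 2 higher (median -0.81). The fibrillar collagens Col1a1, Col1a2 and Col3a1 differed by -2.18, -2.15 and -1.97, the smooth muscle actin gene Acta2 by -2.13, the platelet-derived growth factor receptor gene Pdgfra by -2.36 and the collagen crosslinking enzyme gene Lox by -1.67. Cdh2, the N-cadherin gene, was 0.77 lower on the log2 scale (difference -0.77, adjusted p = 0.650, limma) and did not pass. Dcn, which encodes the matrix proteoglycan decorin, was higher instead (1.19, adjusted p = 0.202 in limma). Without LSC GFP- replicate 1 the median was -0.42 with 7 genes lower, and without LSC GFP- replicate 2 it was -1.04 with 14 lower. Of the 12 genes called, 8 passed whichever array was left out.

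Of these 25 effector genes 10 are also on the stromal or smooth muscle marker lists. Of the 15 on neither list 12 were tested, and 3 were called lower and 1 higher. The stromal and smooth muscle lists were mostly lower in LSC GFP+ cells, as were Zeb1, Zeb2 and Twist1. The summed stromal signal, in multiples of the array's 75th percentile, was 18.3, 19.5 and 24.6 in LSC GFP+ and 59.3, 21.0 and 34.5 in LSC GFP- replicates 1, 2 and 3. Dcn, the stromal gene that was higher in LSC GFP+ cells, carries the overlap of these sums: without it, a choice made after its values were seen, they were 7.96, 6.00 and 8.88 against 52.5, 16.9 and 27.8. The sum of smooth muscle markers was 10.6, 7.04 and 10.0 against 38.5, 20.0 and 22.7. Of 9 stromal genes tested 6 were called lower and 1 higher, and of 7 smooth muscle genes tested 6 were called lower. Among all genes tested 4.29% were called lower and 3.38% higher. Myh11, the smooth muscle myosin, differed by -2.01 (adjusted p = 0.151, limma). Pdgfra and Gli1 entered the test through LSC GFP- cells alone. With probes required to be above background on all 6 arrays, 4 of 7 stromal genes were called lower and 1 higher. Stromal genes above background numbered 7 to 9 on LSC GFP+ and 9 on each LSC GFP- array, and 7 of 8 smooth muscle genes were above background on every array, Lmod1 being the exception.

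Within LSC GFP- cells, the arrays with high sums were also those with high values of Zeb1, Zeb2, Twist2 and Vim. LSC GFP- replicate 1 was highest in both sums and for Zeb1, Zeb2, Twist1, Twist2 and Vim, and LSC GFP- replicate 2 was the lowest LSC GFP- array for both sums and for Zeb1, Zeb2, Twist2 and Vim. Twist1 did not follow this order, being lowest in LSC GFP- replicate 3. Within LSC GFP+ cells the order of the stromal sum depended on Dcn. With Dcn the sum was lowest in replicate 1, where Zeb2 was highest, and without Dcn it was lowest in replicate 2. The smooth muscle sum, Zeb1, Zeb2 and Vim were also lowest in replicate 2, whereas Twist2 was highest there. The Twist1 signal, not well above background in these cells, was lowest in replicate 1, where the smooth muscle sum was highest. In this gating scheme stromal cells are Sca-1+ CD49f- and lie outside the sorted gate. The part of stromal or smooth muscle cells in the differences of Zeb1, Zeb2 and Twist1 was not tested. In these bulk samples, fewer cells of a type and less RNA per cell cannot be told apart.

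**Figure D3:**
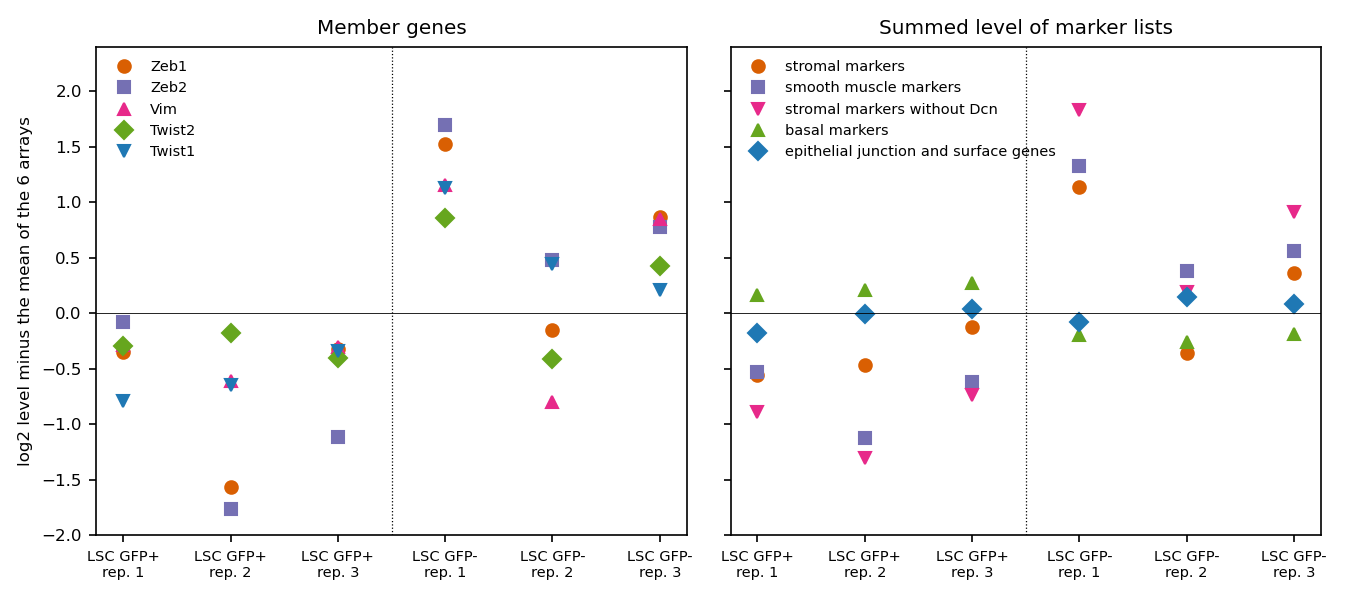
Log2 level on each array minus the mean of the 6 arrays, for 5 member genes (left) and for the summed signal of 4 gene lists and of the stromal list without Dcn (right), with LSC GFP+ arrays left and LSC GFP- arrays right of the dotted line. LSC GFP- replicate 1 is highest for the member genes and for the stromal and smooth muscle sums. The sum of epithelial junction and surface genes varied little, but Pkp3 alone made up 47.7% to 61% of it.

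Snai2 and Ovol1 shared their direction with the basal markers. In LSC GFP+ cells 8 of 12 basal genes tested were called higher and 0 lower, where 3.38% and 4.29% of all genes were. The 8 included Krt14 (1.18), Krt17 (1.40) and the desmosomal cadherin Dsc3 (2.05), whereas the brightest of 4 Trp63 probes differed by 0.11. The Trp63 probes disagreed: another one, above background on all 6 arrays, was 0.62 higher without overlap (adjusted p = 0.374, limma) and passed the unadjusted threshold, and a dimmer one differed by -0.73. Of the 8 genes called 6 passed whichever array was left out. The summed basal signal was 238, 246 and 256 in LSC GFP+ and 186, 177 and 187 in LSC GFP- replicates 1, 2 and 3, without overlap. The part of basal cell content in the differences of Snai2 and Ovol1 was not tested. Luminal markers were mixed in direction, with 5 of 10 called, 3 higher and 2 lower, against 7.66% of all genes. Endothelial markers (5 of 8 tested) had 1 lower, and immune markers (8 of 9 tested) had 0 past the unadjusted threshold in limma and 0 after adjustment, with 3 genes higher and 5 lower in sign. Glial and neuronal markers (9 of 14 tested) also had 0 past it, but all 9 differences were negative, with a median of -0.39. With the replicate block, where 5479 of all 37008 probes passed (2985 lower), 3 of these 9 were called lower. Without LSC GFP- replicate 2, where 2189 probes passed (1312 lower), 3 were also called lower. Summed signals were 6.13 to 6.96 in LSC GFP+ against 6.26 to 7.46 in LSC GFP- cells for endothelial, 239 to 319 against 251 to 297 for immune, and 259 to 333 against 249 to 348 for glial and neuronal genes. These sums mainly read a few bright probes, since Itgam and Csf1r made up at least 99.2% of the immune sum, and Snap25 and Elavl4 at least 89.8% of the glial and neuronal sum. Kdr alone made up 76.7% to 89.4% of the endothelial sum.

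**Figure D4:**
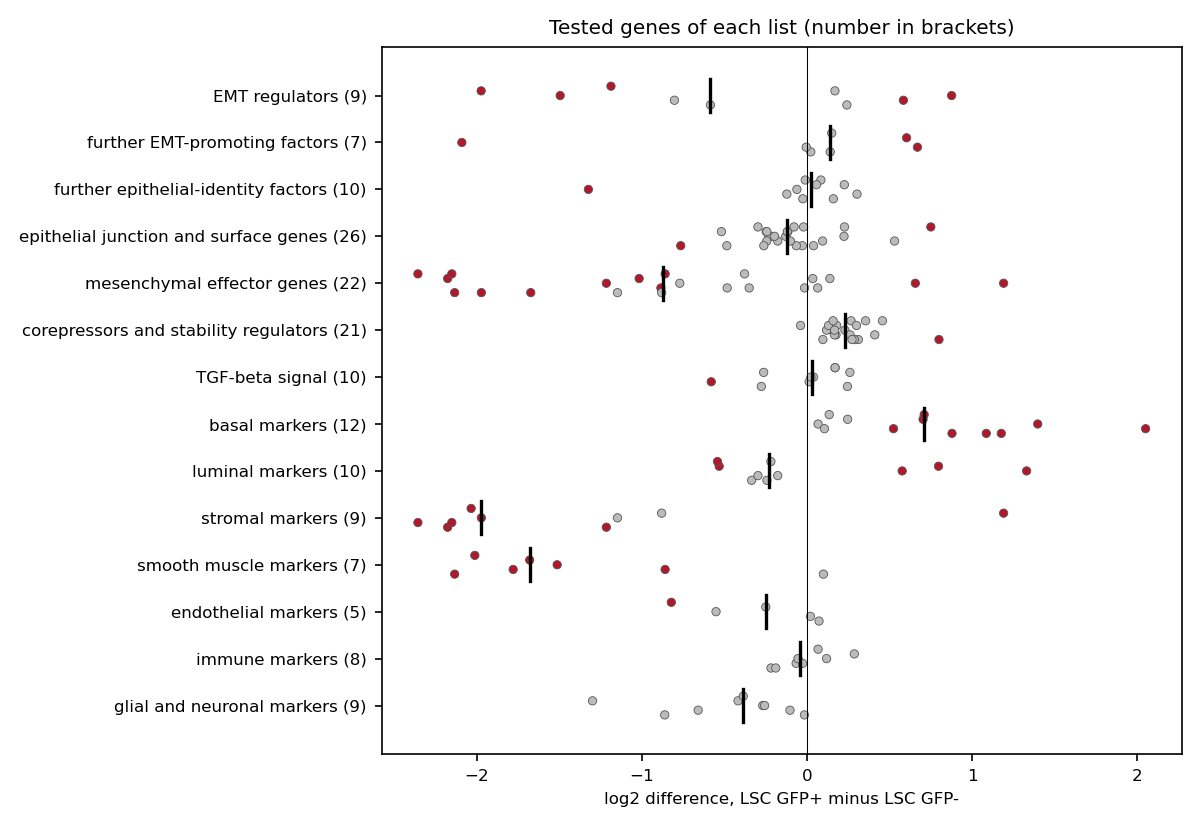
Log2 difference, LSC GFP+ minus LSC GFP-, of each tested gene at its brightest probe (points, red where the unadjusted p of limma was under 0.05) for 14 lists, with the list median as a bar. EMT regulators lie on both sides of 0, with a median of -0.58, stromal and smooth muscle markers mostly below, and basal markers above. The median of the EMT regulators was 0.17 when probes had to be above background on all 6 arrays.

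Of the partners through which these factors act, corepressors and regulators of their stability showed small differences. All 21 were tested and 20 of the differences were positive, with a median of 0.23, but only Ajuba, a LIM protein that binds snail factors, passed the threshold (0.80, adjusted p = 0.400, limma). With the methods' t-test, where 2798 of all 37008 probes passed (1579 higher), 6 of the 21 were called higher. With the replicate block, where 5479 probes passed (2494 higher), 3 of the 21 were called higher. Without overlap between the populations 8 of the 21 were higher and 0 lower, against 6.5% and 5.38% of all genes. The corepressor genes Ctbp1 and Ctbp2 differed by 0.15 and 0.18, and Id1, Id2 and Id3, inhibitors of basic helix-loop-helix factors, by 0.31, 0.17 and 0.12. Of 10 genes of the TGF-beta signal, an inducer of EMT, Tgfb3 was lower (-0.58, adjusted p = 0.578, limma), passing in 2 of 6 fits with 1 array left out, and the receptor genes Tgfbr1 and Tgfbr2 differed by 0.02 and -0.26.

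**Figure D5:**
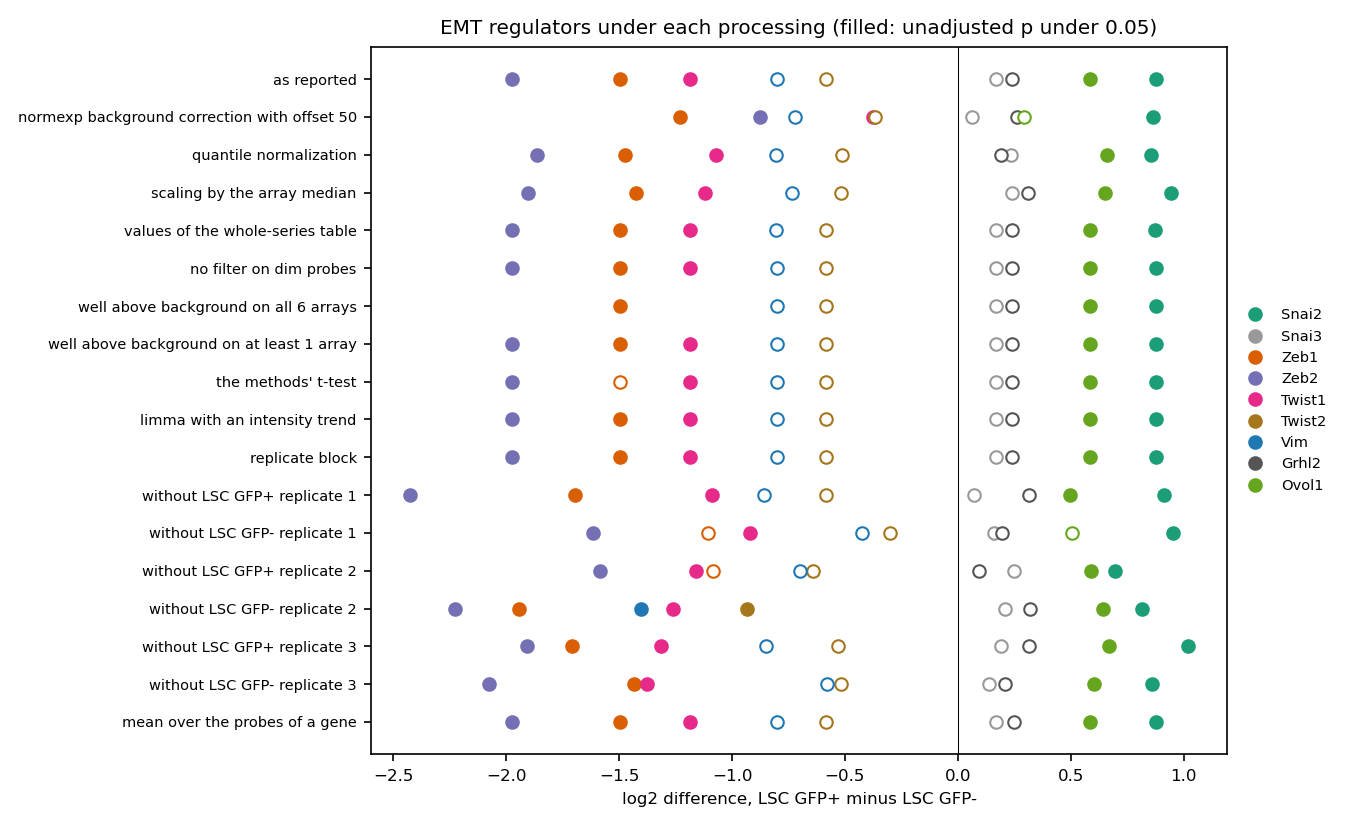
Log2 difference, LSC GFP+ minus LSC GFP-, of the 9 tested member genes at the brightest probe (colours) as reported and under each alternative processing or with 1 array left out (rows), filled where the unadjusted p was under 0.05. No gene changed sides of 0, and the calls of Snai2, Zeb2 and Twist1 remained wherever they were tested.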

How the data were processed

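RNA of 3 LSC GFP+ and 3 LSC GFP- samples, amplified with Ovation Pico WTA, was hybridised to 6 one-colour arrays on 1 slide, scanned in 1 run, so that no slide or scan batch could be compared. Per the file headers, the deposited intensity values are processed signals from Feature Extraction 11.0.1.1 (the submitters' processing notes name 10.7.3.1), background-subtracted on a linear scale and not normalized between arrays. A table of the whole series holds the same signals and served as an alternative.

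Here log2 signals were taken minus each array's 75th percentile, outlier spots were left out (123 to 154 per array), and the remaining spots were averaged per probe. Probes entered the test if all 3 arrays of one population, or of both, were well above background. Testing used limma 3.58.1 in R 4.3.3, two-sided, with Benjamini-Hochberg adjustment over 37008 probes. The script was tested on simulated data. A call is an unadjusted p under 0.05, the threshold of the study's methods, and is read beside the share of all genes called. The brightest probe stands for a gene. The number of arrays limits the precision. Where no array of a population was well above background, a fold is a lower bound against each array's lowest signal well above background.

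The members and lists were chosen with earlier results of these data known. All 10 members are named, with genes of the lists that define a list or pass the threshold without overlap, and the genes of the gating antigens and SHIP1. Other genes of the lists that are named were chosen after their values were seen. Symbols were updated by accession from a RefSeq table of GRCm38.p6 (26582 probes matched), used for names and promoters. Probe positions are those of mm9 in the array design, for which no annotation was used, so exons and UTRs are not given. Col6a3 of the stromal list had no probe under that name. Results for some genes of the lists are not reported here.

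The labels number the replicates 1 to 3 in each population. Samples of the same number deviated together from their population means, with correlations across probes of 0.43, 0.28 and 0.67, and the numbers were therefore taken as pairs in an alternative fit with the number as a block. Other alternatives were normexp background correction, quantile and median scaling, the series table, other filters, the methods' t-test, an intensity trend, the mean over probes and leaving out each array.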

Additional observations from a re-analysis of the deposited data

How the results depend on the processing

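Of 151 recomputed differences of the tested members, 144 kept their direction and their side of the threshold, 5 no longer passed, 2 newly passed and none reversed. The other filters, the methods' t-test, the intensity trend and the replicate block reuse the same difference, so its direction could not change there. The mean over probes altered only Grhl2. The losses were Ovol1 with normexp (0.29) and without LSC GFP- replicate 1 (0.51), and Zeb1 with the methods' t-test (-1.49, as reported), without LSC GFP- replicate 1 (-1.11) and without LSC GFP+ replicate 2 (-1.08). Without LSC GFP- replicate 2, Twist2 (-0.94) and Vim (-1.40) passed. The number of members called was 5, and 3 when a probe had to be well above background on all 6 arrays, where 7 members were tested and Zeb2 and Twist1 were not. It ranged from 3 (without LSC GFP- replicate 1) to 7 (without LSC GFP- replicate 2) when 1 array was left out. All 102 recomputed medians of the lists other than the EMT regulators and the cell type markers moved by less than 1 SD of the list median between arrays of a population. The median of the EMT regulators depended on the filter. It was -0.58 as reported, -0.21 without a filter on dim probes, and 0.17 when all 6 arrays had to be well above background.

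Over all probes 2925 passed an unadjusted p of 0.05 (1250 higher, 1675 lower, 57.3% lower) and 2077 to 4049 when 1 array was left out. With the replicate block 5479 passed (2494 higher, 2985 lower), 0 after adjustment, and the number of members called stayed at 5, so that the pairing changed no member's call. It did change their p-values (limma, unadjusted). With the block p was 0.000417 against 0.0158 for Zeb1 and 5.4e-05 against 0.0031 for Zeb2. It was 0.0068 against 0.0050 for Snai2 and 0.0084 against 0.0029 for Twist1. Adjusted p with the block was 0.0705 for Zeb1 and 0.0599 for Zeb2 (limma). The share that was lower was 46.9% with scaling by the array median and 43.6% with the methods' t-test.

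Dim probes limit Twist1 and Zeb2 in LSC GFP+ cells and Snai1 in both populations. The array's 60-base probes report 1 stretch of a transcript each, and the 2 Zeb2 probes differed from each other.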
